A study of Mus musculus with 12 samples.

Results

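The collagen genes other than type IV are described here in immortalized mouse embryonic palatal mesenchyme (iMEPM) cells, the connective tissue cells of the developing palate. Members were the gene rows whose symbol is Col, a type number, the letter a and a chain number, leaving out the type IV chains *Col4a1* to *Col4a6*. The rule found 38 members among 51490 gene rows, and each had at least 1 count in at least 1 sample. All cells came from a line derived from a Cdkn2a-/- embryo and carried an integrated lentivirus, a scramble shRNA in the control line and an shRNA against *Srsf3*, a splicing factor, in the other (shSrsf3). Both lines went through puromycin selection and a sort of GFP-positive cells, and each shRNA was represented by 1 sorted line. Cells of either line received no ligand (-PDGF-AA) or PDGF-AA, which binds the receptor PDGFRα, at 10 ng/mL over 1 hr (+PDGF-AA), with 3 biological replicates in each of the 4 groups. Poly-A RNA was sequenced, and the libraries held from 30958966 to 76123359 counts. As an shRNA and its line are the same samples, an effect of the shRNA and a difference between the lines cannot be told apart.

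Collagens are secreted or membrane-bound proteins in which 3 chains wind into a triple helix, a fold that needs glycine at regular spacing along the helical part. Fibrillar collagens (types I, II, III, V, XI, XXIV and XXVII) form the load-bearing fibers of connective tissue. FACIT collagens sit on those fibers, type VI forms beaded filaments around cells, type VII anchors epithelium to the underlying stroma, types VIII and X form short-chain networks, multiplexins lie near basement membranes, and types XIII, XVII, XXIII and XXV cross the plasma membrane. Several types are built from chains of different genes in fixed proportions, and palatal mesenchyme is a tissue rich in type I and type III collagen.

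The family is visible in the sequence of its exons. In GENCODE M39 coding sequences (GRCm39), each of the 38 members held an uninterrupted run of at least 20 codon triplets that begin with a glycine codon (GGN), with runs from 23 to 344 triplets and a median of 61, against 20 of 22196 other coding genes, type IV chains left out. Runs of 216 to 344 triplets were found in the fibrillar chains, while the longest run in any other member was 113. Exons of 54 bases numbered 21 to 33 in each fibrillar gene and up to 28 in another member, so these ranges overlap. At least 1 exon of 54 bases was present in 34 members, and in 33 of them at least 1 reads as 6 triplets that begin with a glycine codon. The first exon of this kind is shown for the type I chains, for 2 type VI chains that responded in opposite directions, and for *Col14a1* and *Col25a1*, with capitals marking the glycine codons. The exons lie at chr11:94830730-94830783 (*Col1a1*, plus strand, exon 8), chr6:4515481-4515534 (*Col1a2*, plus strand, exon 8), chr10:76555457-76555510 (*Col6a1*, minus strand, exon 9), chr1:90723637-90723690 (*Col6a3*, minus strand, exon 13), chr15:55331356-55331409 (*Col14a1*, plus strand, exon 37) and chr3:130311333-130311386 (*Col25a1*, plus strand, exon 13).
Col1a1: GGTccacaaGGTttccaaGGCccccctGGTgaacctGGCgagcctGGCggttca
Col1a2: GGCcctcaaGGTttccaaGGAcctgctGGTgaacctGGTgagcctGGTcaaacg
Col6a1: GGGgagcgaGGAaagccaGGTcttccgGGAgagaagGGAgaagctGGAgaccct
Col6a3: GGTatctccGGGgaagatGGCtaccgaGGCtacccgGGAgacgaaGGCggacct
Col14a1: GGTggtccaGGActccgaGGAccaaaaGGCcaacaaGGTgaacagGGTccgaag
Col25a1: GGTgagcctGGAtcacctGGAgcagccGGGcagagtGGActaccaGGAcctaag

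Despite this repeat, the members were distinct enough to be counted apart: at most 4.08% of the sequences of 31 bases in any member's transcripts also occurred in another gene. Levels are given in counts per 1000000 library counts (CPM), with totals scaled for library composition, and levels of different genes are compared only per kb of transcript. Of the 38 members, 30 passed the filter on low counts and were tested. The other 8 (*Col6a5*, *Col6a6*, *Col9a1*, *Col13a1*, *Col19a1*, *Col22a1*, *Col24a1* and *Col26a1*) had between 0 and 12 counts in every sample.

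Members differed widely in level, and the type I chains led the family on the per-kb scale. *Col1a1*, the α1 chain of type I collagen, averaged 2982 CPM per kb over the 12 samples, *Col1a2*, the α2 chain, 2069, and *Col3a1*, the single chain of type III collagen, 868. *Col5a2* (447 CPM per kb), *Col12a1* (425), *Col5a1* (283), *Col6a1* (274) and *Col8a1* (224) followed, and the lowest tested member, *Col6a4*, averaged 0.132. *Col5a2* and *Col12a1* were not ordered beyond their spread, as *Col5a2* was the higher in 9 of 12 samples, and the same holds for *Col5a1* and *Col6a1*, where *Col5a1* was the higher in 9 of 12. *Col2a1*, the cartilage collagen, stood at 21.1 CPM per kb, and *Col10a1*, the collagen of hypertrophic cartilage, at 0.212.

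**Figure D1:**
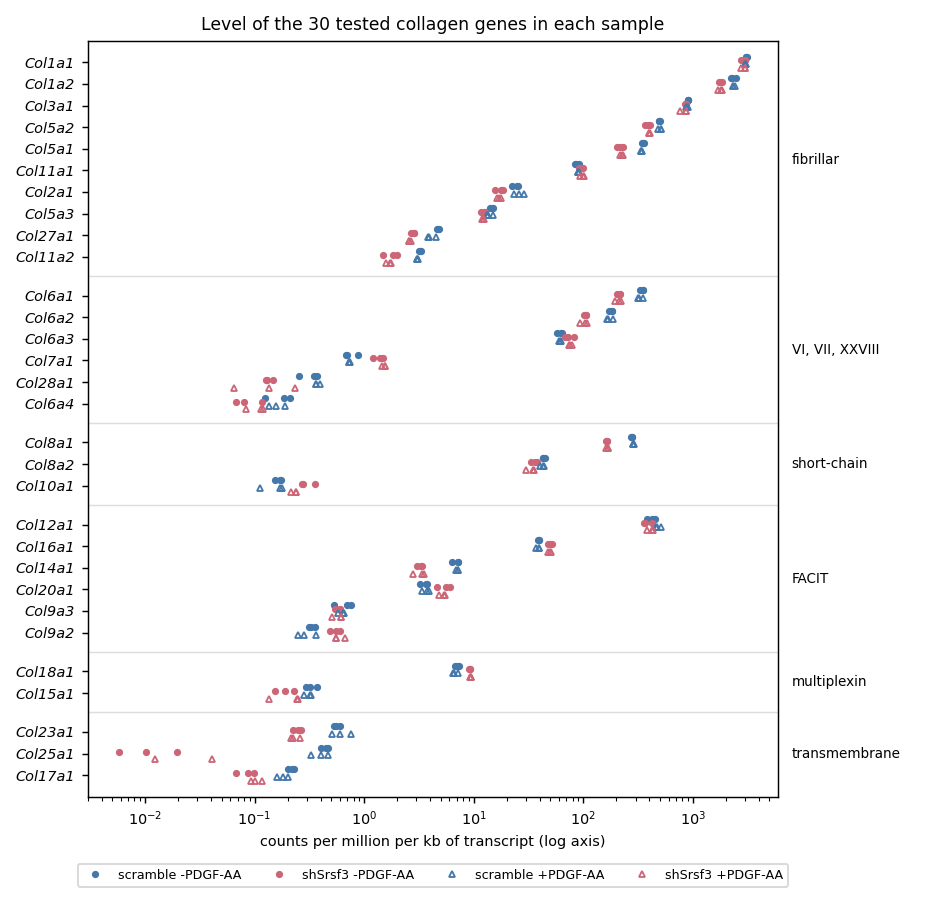
Level of each tested collagen gene in each of the 12 samples, in CPM per kb of transcript on a log axis, grouped by collagen class; blue marks scramble, red shSrsf3, filled circles -PDGF-AA and open triangles +PDGF-AA. Levels run from about the 2982 CPM per kb of *Col1a1* down to *Col6a4* at 0.132 and the near-zero shSrsf3 samples of *Col25a1* (1 sample with a count of 0 is not drawn).

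Collagen RNA other than type IV took a smaller part of all counts in the shSrsf3 line than in the scramble line. Without ligand, the members took 5.25%, 5.16% and 5.55% of all counts in scramble, and 4.66%, 4.40% and 4.74% in shSrsf3 samples. With ligand, the shares were 5.35%, 5.29% and 5.29% in scramble and 4.73%, 4.71% and 4.36% in shSrsf3. Each shSrsf3 sample lay below each scramble sample, at means of 4.60% ± 0.175 against 5.32% ± 0.204 without ligand and 4.60% ± 0.209 against 5.31% ± 0.0383 with it (SD, n = 3). These are shares of counts, to which long transcripts add more. Per kb of transcript, the members took 2.29% ± 0.108 in scramble and 1.94% ± 0.0881 in shSrsf3 samples without ligand. With ligand, the per-kb shares were 2.29% ± 0.0261 and 1.94% ± 0.0941 (SD, n = 3). *Col1a1* alone accounted for 1.82% of counts in scramble and 1.74% in shSrsf3 cells in the absence of ligand. In bulk samples, fewer cells of a type and less RNA per cell cannot be told apart.

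Loss of *Srsf3* was read from the RNA first. *Srsf3* stood at 206 ± 6.59 CPM in unstimulated scramble and 162 ± 1.46 CPM in unstimulated shSrsf3 samples, and at 222 ± 8.07 and 165 ± 4.33 CPM with ligand (SD, n = 3), a log2 fold change of -0.34 (adjusted p = 7.95e-06) and -0.43 (adjusted p = 9.54e-07). Samples of the shSrsf3 line were below those of the scramble line in both conditions. As a check of identity, 9 of 10 mesenchyme markers passed the low-count filter and summed to 5221 to 5527 CPM in scramble and 6000 to 6189 CPM in shSrsf3 samples, mostly *Vim*, while the palate transcription factors *Osr2* and *Msx1* were low (means of 5.23 and 1.70 CPM in scramble -PDGF-AA) and *Meox2* had at most 12 counts. The markers were mixed: at an adjusted p of at most 0.05 (edgeR), 2 of the 9 were higher and 4 lower in shSrsf3 cells without ligand. With ligand, 2 were higher and 3 lower. Their median log2 fold changes were -0.09 and -0.06. Over all tested genes, 45.9% passed without ligand and 41.0% with it. The osteoblast list, mostly *Runx2*, was lower in shSrsf3 cells as a sum, at 35.4 to 37.1 CPM in scramble and 28.5 to 32.6 CPM in shSrsf3 samples without ligand and 31.1 to 37.3 and 27.2 to 29.3 CPM with it, while its members *Dmp1* and *Sp7* rose without ligand (log2 fold changes of 3.85 and 1.26) and *Alpl* fell (-1.33), each below 2 CPM. The part of this list in the collagen results was not tested. Lists for other cell types summed to 2.94 to 6.25 CPM (epithelium, *Esrp1* at 0), 1.23 to 2.34 (blood, *Adgre1* at 0), 0.104 to 0.579 (skeletal muscle, *Myod1* at 0) and 2.14 to 3.22 (Schwann and neural crest, *Sox10* and *Foxd3* at 0).

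Most tested collagen genes differed between the lines, and most of those were lower in shSrsf3 cells. Without ligand, 26 of the 30 tested members passed edgeR's quasi-likelihood test (an adjusted p of at most 0.05), 18 lower and 8 higher in shSrsf3, where 45.9% of all tested genes passed (23.7% lower and 22.2% higher). With ligand, 24 passed, 17 lower and 7 higher, beside a background of 41.0% (20.7% lower and 20.3% higher). The median log2 fold change over the 30 tested members was -0.36 without ligand and -0.37 with it, beside -0.02 and -0.01 over all 15037 tested genes. The members are few and were tested because they were abundant enough, so these counts describe them and are not a test of the family. In both comparisons 23 members passed, 16 lower and 7 higher, and no member changed sides; 3 (*Col1a1*, *Col3a1* and *Col9a3*) passed in neither. The 3 shSrsf3 and 3 scramble samples did not overlap in 27 members without ligand (background 53.3%) and in 28 with it (background 52.6%).

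**Figure D2:**
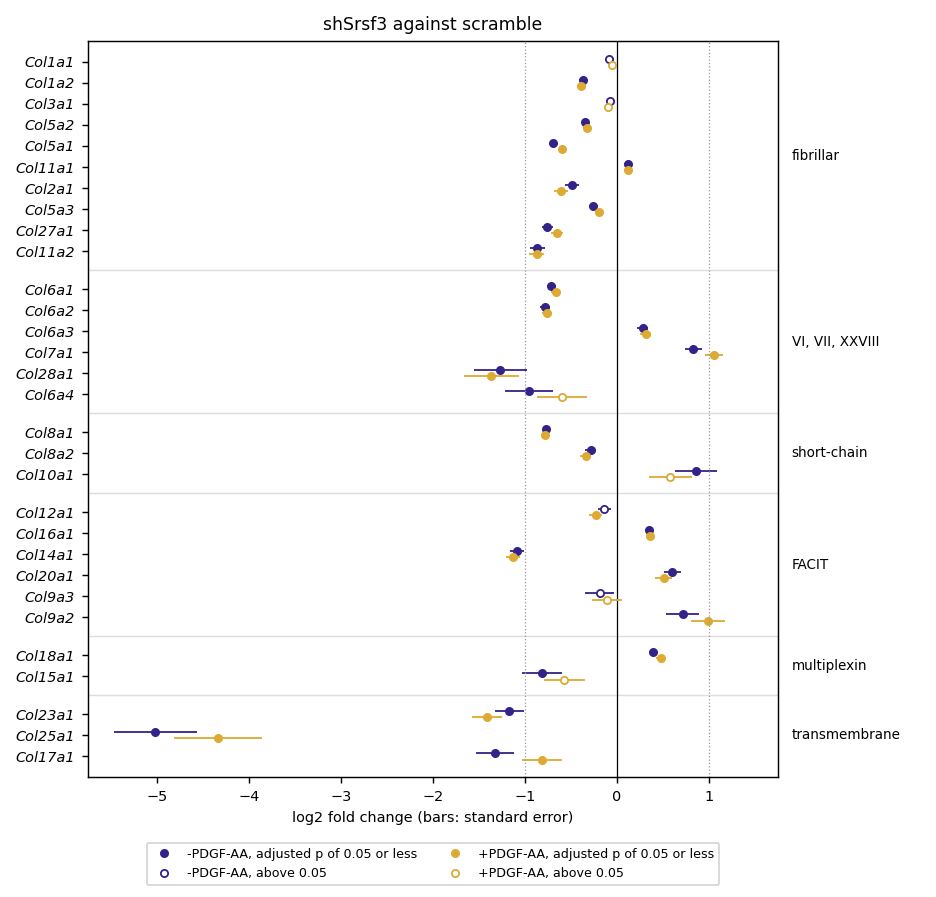
Log2 fold change of shSrsf3 against scramble for the 30 tested collagen genes, with its standard error as a bar, without (purple) and with PDGF-AA (yellow); filled points have an adjusted p of 0.05 or less and dotted lines mark a 2-fold change. Most points lie left of 0, *Col25a1* lies far to the left at -5.01 and -4.33, and *Col7a1*, *Col9a2*, *Col10a1*, *Col20a1*, *Col16a1*, *Col18a1*, *Col6a3* and *Col11a1* lie to the right in both conditions.

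Changes of at least 2-fold were limited to 6 members. Counting as DE (differentially expressed) an adjusted p of 0.05 or less with a 2-fold change, 5 members were DE without ligand, each lower, and 5 with ligand, 4 lower and 1 higher. Without ligand, 5.75% of all tested genes were DE (2.76% lower and 2.99% higher), and with it 5.42% (2.57% lower and 2.85% higher). *Col14a1*, *Col23a1*, *Col25a1* and *Col28a1* were DE lower in both comparisons, *Col17a1* was DE lower in the absence of ligand and *Col7a1* was DE higher with it. Their values are given with their classes. *Col25a1* passed the low-count filter through the scramble samples alone, so that it had to differ once tested. It is part of the counts of lower members in both comparisons.

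Among the fibrillar chains, the type I and type III genes kept their rank, but *Col1a2* fell. Without ligand, *Col1a1* measured 18359, 18032 and 18314 CPM in scramble samples, and 17638, 16222 and 17783 CPM in shSrsf3 samples. With ligand it measured 17929, 18175 and 17728 CPM in scramble and 17729, 17799 and 16473 CPM in shSrsf3. The groups overlapped with ligand and lay close without it (log2 fold changes of -0.08 ± 0.04 and -0.05 ± 0.04 SE, adjusted p = 0.072 and 0.29, edgeR). *Col3a1* changed by a similar amount, at 5001, 5027 and 5054 against 4830, 4671 and 4819 CPM without ligand, and at 4917, 5010 and 4830 against 4806, 4804 and 4206 CPM with it (log2 fold changes of -0.07 and -0.10, adjusted p = 0.16 and 0.088, edgeR). Unlike those of *Col1a1*, its shSrsf3 samples lay below its scramble samples in both conditions, though narrowly with ligand. Single settings put both genes past the threshold: *Col1a1* without ligand with shSrsf3 -PDGF-AA replicate 3 (adjusted p = 0.0499) or shSrsf3 +PDGF-AA replicate 3 (0.0487) left out, and *Col3a1* without ligand with shSrsf3 +PDGF-AA replicate 3 left out (0.026) and with ligand with shSrsf3 +PDGF-AA replicate 2 left out (0.0443). With no low-count filter, both genes passed in both conditions.

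*Col1a2* in unstimulated cells measured 12224, 11961 and 13246 CPM in scramble against 9753, 9303 and 9915 CPM in shSrsf3. With ligand, the values were 12913, 12403 and 12561 against 9982, 9737 and 9075 CPM. The groups did not overlap in either condition, and the log2 fold changes were -0.37 ± 0.04 and -0.40 ± 0.04 (SE, adjusted p = 9.46e-06 and 5.37e-06, edgeR).

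Type V chains, which set the diameter of type I fibers, fell together but not equally. *Col5a1* was at 2959 ± 44.8 CPM in scramble and 1830 ± 107 CPM in shSrsf3 cells without ligand, and at 2864 ± 15.1 and 1898 ± 54.4 CPM with it (SD, n = 3; log2 fold changes of -0.69 and -0.59). *Col5a2* went from 3727 ± 29.2 to 2941 ± 139 CPM and from 3807 ± 134 to 3028 ± 31.6 CPM (-0.34 and -0.33). *Col5a3* had the smallest changes of the 3 (-0.25 and -0.19), and the 3 genes passed the test in both conditions. *Col5a2* lies 16.7 kb from *Col3a1* on chromosome 1, end to end on opposite strands, and *Col3a1* did not pass.

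Of the rarer fibrillar chains, *Col11a2* fell the most among those tested, from 20.4 ± 0.319 to 11.3 ± 1.64 CPM without ligand and from 19.4 ± 0.144 to 10.6 ± 0.618 CPM with it (log2 fold change of -0.87 in both). *Col27a1*, a cartilage-associated fibrillar collagen, fell by 0.76 and 0.65 on the log2 scale. *Col2a1* fell by 0.48 and 0.61, from 126 ± 9.46 to 90.1 ± 7.79 CPM without ligand. Chondrocyte markers were mixed: 4 of 6 were tested, and the list summed to 159 to 191 CPM in scramble and 103 to 115 CPM in shSrsf3 samples without ligand, and to 155 to 181 CPM and 111 to 115 CPM with it. Nearly all of that sum was *Sox9*, the cartilage transcription factor, which fell (-0.68 and -0.55). *Cnmd* fell as well (-2.13 and -1.99), *Hapln1* rose from at most 10 counts in a sample (2.09 and 2.49), *Matn3* did not pass (0.50 and 0.36), and *Acan* and *Matn1* had at most 17 and 3 counts. Their part in the result was not tested. *Col11a1* was the only fibrillar chain past the threshold in the higher direction (0.12 in both conditions, adjusted p = 0.043 and 0.042), and this call was fragile. Without ligand it was lost with scramble -PDGF-AA replicate 2, shSrsf3 -PDGF-AA replicate 1 or 3, or scramble +PDGF-AA replicate 1 or 3 left out (adjusted p from 0.0523 to 0.159). With ligand it was lost with shSrsf3 -PDGF-AA replicate 1, any 1 of the scramble +PDGF-AA replicates, or shSrsf3 +PDGF-AA replicate 1 or 2 left out (0.0558 to 0.161).

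The chains of type VI, which assemble as 1 α1, 1 α2 and 1 α3 or related chain, moved in opposite directions. *Col6a1* measured 1445, 1453 and 1358 CPM in unstimulated scramble against 879, 837 and 879 CPM in unstimulated shSrsf3 samples, and 1321, 1447 and 1304 against 873, 901 and 793 CPM with ligand. *Col6a2* measured 1084, 1088 and 1035 against 634, 605 and 628 CPM, and 998, 1108 and 979 against 616, 644 and 558 CPM with ligand. For both genes the highest shSrsf3 sample was well below the lowest scramble sample, at log2 fold changes of -0.71 and -0.67 for *Col6a1* and -0.78 and -0.76 for *Col6a2* (largest adjusted p of 2.56e-07). *Col6a3* measured 565, 521 and 588 CPM in unstimulated scramble against 664, 619 and 751 CPM in unstimulated shSrsf3 samples, and 548, 569 and 560 against 692, 715 and 676 CPM with ligand. Here the shSrsf3 samples were the higher ones and the groups again did not overlap (0.28 ± 0.06 and 0.31 ± 0.06 SE, adjusted p = 0.00197 and 9.81e-04, edgeR). A set of 3 libraries had a lower mapping rate (replicates 1 and 2 of unstimulated scramble and replicate 2 of stimulated scramble), and without them *Col6a3* was at 0.20 in the absence of ligand (adjusted p = 0.062). That fit leaves 1 unstimulated scramble library, whose spread is taken from the remaining groups. *Col6a4*, an α3-related chain near 1 CPM, was at -0.95 (adjusted p = 0.00936) and -0.59 (adjusted p = 0.099). The type V, type VI and type VIII chains fell outside the rule for full values and were singled out after those values were seen.

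*Col6a1* and *Col6a2* lie 83.9 kb apart on chromosome 10, both on the minus strand, and *Col6a3* lies on chromosome 1. The 150 bases before the gene start of each, on the coding strand, are shown because 2 of these genes moved together and the third did not; capitals mark a match to TGANTCA, the AP-1 motif, on either strand. They are RefSeq sequences (GRCm38.p6) at chr10:76726045-76726194 for *Col6a1*, chr10:76623631-76623780 for *Col6a2* (the outer of its 2 starts) and chr1:90843972-90844121 for *Col6a3*.
Col6a1: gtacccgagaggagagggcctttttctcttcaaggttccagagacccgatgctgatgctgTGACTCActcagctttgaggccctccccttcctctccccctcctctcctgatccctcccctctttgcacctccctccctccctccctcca
Col6a2: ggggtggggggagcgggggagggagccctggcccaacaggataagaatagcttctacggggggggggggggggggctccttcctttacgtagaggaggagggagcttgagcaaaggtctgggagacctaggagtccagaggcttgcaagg
Col6a3: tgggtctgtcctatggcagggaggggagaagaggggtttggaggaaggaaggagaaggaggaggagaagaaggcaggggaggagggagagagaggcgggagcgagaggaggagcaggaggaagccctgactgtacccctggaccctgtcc

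Over the whole window of 250 bases before to 50 bases after the start, TGANTCA occurred on either strand in 7.81% of 32851 RefSeq promoters and in 1 of the 33 windows of the 30 members found in that table, the *Col6a1* window. TATAAA occurred in 13.6% of all windows and 5 member windows, CCAAT in 37.4% and 10, and GGGCGG in 35.7% and 19, the last including *Col6a2* and neither *Col6a1* nor *Col6a3*. Each motif was searched on both strands, TGANTCA is its own reverse complement, no motif contains another, and a match is a description of the letters only.

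*Col7a1* and *Col28a1*, which like the type VI chains carry von Willebrand A domains, differed in direction. *Col7a1*, the anchoring fibril collagen, measured 6.34, 6.51 and 8.17 CPM in unstimulated scramble samples, and 12.9, 11.2 and 13.7 CPM in their shSrsf3 counterparts. With ligand it measured 6.68, 6.75 and 6.80 against 14.2, 14.3 and 13.5 CPM. Each shSrsf3 sample was above each scramble sample, at log2 fold changes of 0.83 ± 0.09 and 1.06 ± 0.09 (SE, adjusted p = 8.93e-06 and 1.04e-06, edgeR), so that only the second reached 2-fold. *Col28a1*, a collagen known from peripheral nerve, measured 1.82, 1.72 and 1.24 against 0.622, 0.638 and 0.725 CPM without ligand, and 1.79, 1.93 and 1.79 against 0.668, 1.15 and 0.322 CPM with it. The groups did not overlap (-1.27 ± 0.29 and -1.36 ± 0.30 SE, adjusted p = 0.00281 and 0.00237, edgeR), but with 1 unstimulated scramble library left, after the 3 of lower mapping rate were taken out, the first was at -0.93 (adjusted p = 0.082).

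The short-chain collagens of type VIII fell and *Col10a1* did not. *Col8a1*, a collagen of vascular and mesenchymal matrix, went from 1422 ± 18.5 to 835 ± 7.81 CPM without ligand and from 1465 ± 13.3 to 851 ± 19.8 CPM with it, at log2 fold changes of -0.77 and -0.78. Among the tested members it had the smallest adjusted p in both comparisons (2.60e-10 and 2.07e-10). *Col8a2* fell by 0.29 and 0.34 on the log2 scale. The sum of the endothelial markers, of which 4 of 5 were tested, was 30.5 to 33.3 CPM in scramble and 22.1 to 22.6 CPM in shSrsf3 samples without ligand, and 30.96 to 34.6 and 19.1 to 22.2 CPM with it. Most of it was *Tek* (-0.61 and -0.84), while *Cdh5* (2.33 and 2.82) and *Kdr* (1.24 and 0.91) rose from below 1 CPM, *Pecam1* did not pass (-0.61 and 0.25) and *Tie1* was at 0. Their part in the type VIII result was not tested. *Col10a1*, with 20 to 74 counts a sample, was at 0.86 (adjusted p = 0.0068) and 0.58 (adjusted p = 0.066), and in the fit with 1 unstimulated scramble library left the first was at 0.83 (adjusted p = 0.062).

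FACIT and multiplexin collagens split. *Col14a1*, which binds the surface of type I fibers, measured 45.9, 41.2 and 46.0 CPM in unstimulated scramble samples against 21.8, 19.5 and 21.3 CPM in shSrsf3. With ligand, it measured 46.1, 46.3 and 44.5 against 22.9, 21.7 and 17.9 CPM. No shSrsf3 sample came near a scramble sample (-1.09 ± 0.07 and -1.13 ± 0.08 SE, adjusted p = 6.63e-08 and 6.39e-08, edgeR). Of the genes annotated antisense to *Col14a1*, 2 were looked at after the values were seen, and *Gm52209* and *1700040F17Rik* were not looked at. Both genes looked at fell as well. *Gm18787* went from 2.50 ± 0.357 to 0.236 ± 0.0324 CPM without ligand (log2 fold changes of -3.38 and -3.61). *Gm49257* went from 0.661 ± 0.261 to 0.0445 ± 0.026 CPM (-3.86 and -3.19). Its unstimulated shSrsf3 level is too low to pass the low-count filter, so it was tested because other samples were higher and had to differ. Annotated exons of *Gm18787* and *Gm49257* had 0 overlaps with those of *Col14a1* and lie in its introns. The libraries were stranded, but whether the counting used strand is not given in the sources used here, and without it reads from *Col14a1* introns and from these genes cannot be told apart.

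In contrast to *Col14a1*, the FACIT genes *Col16a1*, *Col20a1* and *Col9a2* were higher in shSrsf3 cells. *Col16a1* went from 222 ± 3.63 to 283 ± 12.1 CPM without ligand (0.35 and 0.36 in the absence and presence of ligand), *Col20a1* from 15.9 ± 1.34 to 24.3 ± 3.14 CPM (0.60 and 0.51) and *Col9a2* from 0.973 ± 0.0607 to 1.61 ± 0.174 CPM (0.71 and 0.99). *Col12a1*, the most abundant FACIT gene per kb, was at -0.14 ± 0.07 (adjusted p = 0.13) without ligand and -0.23 ± 0.07 (adjusted p = 0.017, edgeR) with it. It passed without ligand with no low-count filter, without the 3 libraries of lower mapping rate (adjusted p = 0.038, 1 unstimulated scramble library left), and with scramble -PDGF-AA replicate 2 (0.0446) or shSrsf3 -PDGF-AA replicate 3 (0.0325) left out, and failed with ligand with scramble +PDGF-AA replicate 3 (0.0777) or shSrsf3 +PDGF-AA replicate 3 (0.0924) left out. *Col18a1*, whose C-terminal fragment is endostatin, rose by 0.39 and 0.48 on the log2 scale, from 39.4 ± 1.83 to 51.7 ± 0.553 CPM without ligand. The other multiplexin, *Col15a1*, went from 1.89 ± 0.214 to 1.10 ± 0.217 CPM (-0.81, adjusted p = 0.00696) and was at -0.57 with ligand (adjusted p = 0.053).

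Each of the 3 tested transmembrane collagens fell, though *Col25a1*, described below, had to differ once tested. *Col23a1* measured 3.25, 3.52 and 3.07 against 1.55, 1.46 and 1.32 CPM without ligand, and 3.49, 4.45 and 2.95 against 1.26, 1.52 and 1.32 CPM with it. The groups were apart in both conditions (-1.17 ± 0.16 and -1.41 ± 0.17 SE, adjusted p = 4.45e-05 and 1.41e-05, edgeR). *Col17a1*, a component of epithelial hemidesmosomes, went from 1.21 ± 0.0863 to 0.473 ± 0.0912 CPM and from 1.01 ± 0.119 to 0.576 ± 0.0689 CPM (-1.32 and -0.81). Of 9 epithelial markers 3 were tested, and the list summed to 4.81 to 6.25 CPM in scramble and 3.31 to 3.60 CPM in shSrsf3 samples without ligand, and to 4.98 to 6.18 CPM and 2.94 to 4.25 CPM with it. *Cdh1*, E-cadherin, fell from 2.36 ± 0.0271 to 0.484 ± 0.0936 CPM without ligand (log2 fold change of -2.24). It was the only 1 of the 3 tested markers to pass the test without ligand, and the median of the 3 was -0.22. *Krt5*, *Krt14*, *Krt8* and *Krt18* had at most 10 counts in a sample, and their part in the *Col17a1* result was not tested.

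*Col25a1*, a brain and muscle collagen required for motor innervation, changed the most in fold. It fell outside the rule for full values because of its low level and was singled out after its values were seen. Without ligand, it had 45, 53 and 64 counts in the scramble libraries and 4, 1 and 1 in the shSrsf3 libraries. With ligand, the counts were 64, 69 and 55 in scramble and 4, 0 and 1 in shSrsf3. In each condition the scramble samples were thus near 1 CPM and the shSrsf3 samples at or near the floor of 3 counts a library. Summed over replicates, scramble exceeded shSrsf3 34.2-fold without ligand (95% exact binomial interval of 15.4 to 94.6, counting error only) and 20.9-fold with it (8.80 to 65.1). The gene passed the low-count filter through the scramble samples alone, so that it had to differ once tested, and its fitted fold change depends on the prior count.

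**Figure D3:**
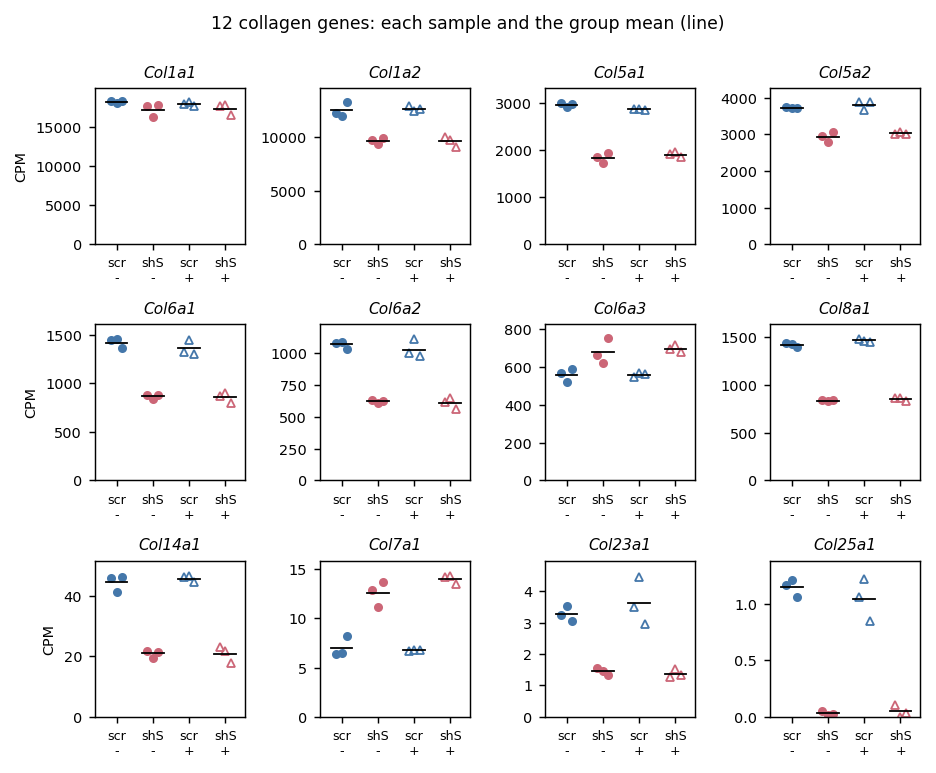
CPM in each sample (points) and group means (lines) of 12 collagen genes, on linear axes from 0; scr is scramble, shS shSrsf3, - without and + with PDGF-AA. Groups are apart for each gene shown but *Col1a1*, where they overlap with ligand, and *Col6a3* and *Col7a1* are the 2 that are higher in shSrsf3.

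Since several collagens are built from chains of different genes, the ratio between the chains of each type was compared in each sample. The ratio of 2 genes within a library does not depend on how libraries are scaled. Ratios were taken from CPM and not per kb, so only their change between the lines is read. Their size is not to be set against the proportions of chains in the protein. The lowest-numbered tested chain of each type was set over each other tested chain, which gave 9 pairs, a comparison chosen after the values of the chains were seen. Each ratio was compared between the lines by an exact two-sided permutation test within ligand condition, over 400 rearrangements with a smallest possible p of 0.005, and adjusted over the 9 pairs.

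In 8 of the 9 pairs the ratio differed between the lines at that smallest p (adjusted p = 0.00563, exact permutation test), and in those pairs the 3 shSrsf3 samples did not overlap the 3 scramble samples in either condition. The same share over all pairs of genes was not computed. Of single tested genes, 53.3% did not overlap between the lines without ligand and 52.6% with it. That is an unlike measure, as a ratio can separate when only 1 of its chains differs. Of the 30 tested members, 27 did not overlap without ligand and 28 with it. The 8 pairs are thus not shown to exceed what any pairs of these members would give. As the pairs were chosen with the separated chains in view, the permutation p describes them and is no independent support. *Col1a1* to *Col1a2* went from 1.46 ± 0.0705 to 1.78 ± 0.0339 without ligand and from 1.42 ± 0.0395 to 1.81 ± 0.0269 with it (SD, n = 3), a mean log2 change of 0.32. *Col6a1* to *Col6a3* went from 2.55 ± 0.238 to 1.28 ± 0.0983 and from 2.43 ± 0.106 to 1.23 ± 0.0509 (-0.99). *Col6a1* to *Col6a2* moved far less, from 1.33 ± 0.0125 to 1.39 ± 0.00917 and from 1.32 ± 0.0138 to 1.41 ± 0.0121 (0.08). The neighbouring type VI genes stayed close in proportion while both moved against *Col6a3*.

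*Col5a1* to *Col5a2* fell from 0.794 ± 0.0081 to 0.622 ± 0.00715 without ligand (mean log2 change of -0.31), and *Col5a1* to *Col5a3* from 32.9 ± 1.32 to 24.2 ± 0.308 (-0.42). *Col8a1* to *Col8a2* fell from 7.48 ± 0.126 to 5.37 ± 0.302 (-0.46). *Col11a1* to *Col11a2* rose from 33.0 ± 1.24 to 65.4 ± 7.16 (0.99), and *Col9a2* to *Col9a3*, both near 1 to 2 CPM, from 0.524 ± 0.0713 to 0.973 ± 0.127 (1.00). The ratio of *Col6a1* to *Col6a4* was not shown to differ (mean log2 change of 0.10, p = 0.605, exact permutation test).

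**Figure D4:**
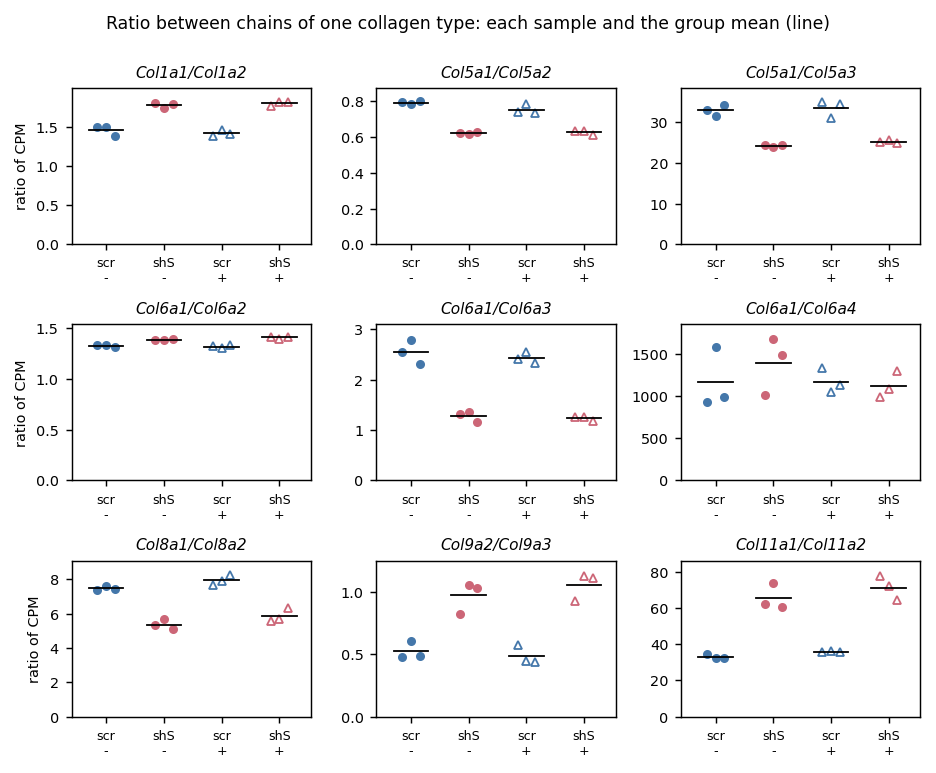
Ratio of CPM (not per kb) between chains of the same collagen type in each sample (points) with group means (lines), on linear axes from 0; scr is scramble, shS shSrsf3, - without and + with PDGF-AA. The lines separate in each panel but *Col6a1*/*Col6a4*, with the *Col6a1*/*Col6a3* ratio at about 2.55 in scramble and 1.28 in shSrsf3 without ligand.

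The collagen RNA stayed mostly fibrillar in both lines, while the shares of the smaller classes shifted. Per kb, fibrillar chains were 84.0% ± 0.207 of member counts in unstimulated scramble and 85.8% ± 0.301 in unstimulated shSrsf3 samples (SD, n = 3). The class holding type VI, *Col7a1* and *Col28a1* went from 6.78% ± 0.288 to 5.33% ± 0.0231 and the short-chain class from 3.72% ± 0.109 to 2.72% ± 0.0632. The FACIT share was 5.43% ± 0.283 and 6.03% ± 0.316 without ligand. With ligand it was 6.16% ± 0.311 in scramble and 6.40% ± 0.139 in shSrsf3, and the samples of the lines overlapped. Without ligand, the multiplexin share was 0.085% ± 0.00499 and 0.129% ± 0.00413, and the transmembrane share 0.0143% ± 0.0011 and 0.00506% ± 6.53e-04.

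Upon ligand stimulation for 1 hr, no collagen gene passed the main edgeR test. In scramble cells, 0 of the 30 tested members passed by edgeR, beside 4.04% of all tested genes, and 2 had an unadjusted p under 0.05. DESeq2 called 1 and limma voom 0. In shSrsf3 cells, edgeR called 0 members (background 0.565%, 0 at an unadjusted p under 0.05), as did DESeq2 and limma voom. Log2 fold changes ranged from -0.26 to 0.22 in scramble and from -0.38 to 0.54 in shSrsf3 cells, the widest of them in genes of few counts. The 2 scramble genes with a small unadjusted p were *Col12a1*, at 4987 ± 394 CPM without and 5734 ± 303 CPM with ligand (0.20 ± 0.07 SE, edgeR adjusted p = 0.14), and *Col27a1*, at 35.8 ± 0.531 and 31.2 ± 3.15 CPM (-0.20 ± 0.06 SE, adjusted p = 0.077). *Col12a1* was the member that DESeq2 called (adjusted p = 0.0479), and it also passed in edgeR with scramble -PDGF-AA replicate 3 left out (0.0354). With no low-count filter, *Col12a1* and *Col27a1* both passed in edgeR (adjusted p = 5.54e-09 and 0.0112). *Col27a1* passed with scramble +PDGF-AA replicate 2 left out (0.00289), and without the 3 libraries of lower mapping rate (0.0207), where 2 stimulated libraries were set against 1 unstimulated library. The difference in ligand response between the lines, tested as an interaction, was called in 0 members by edgeR (background 0.0133%, 0 at an unadjusted p under 0.05), DESeq2 and limma voom. The comparisons with and without ligand share their samples with the knockdown comparisons.

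**Figure D5:**
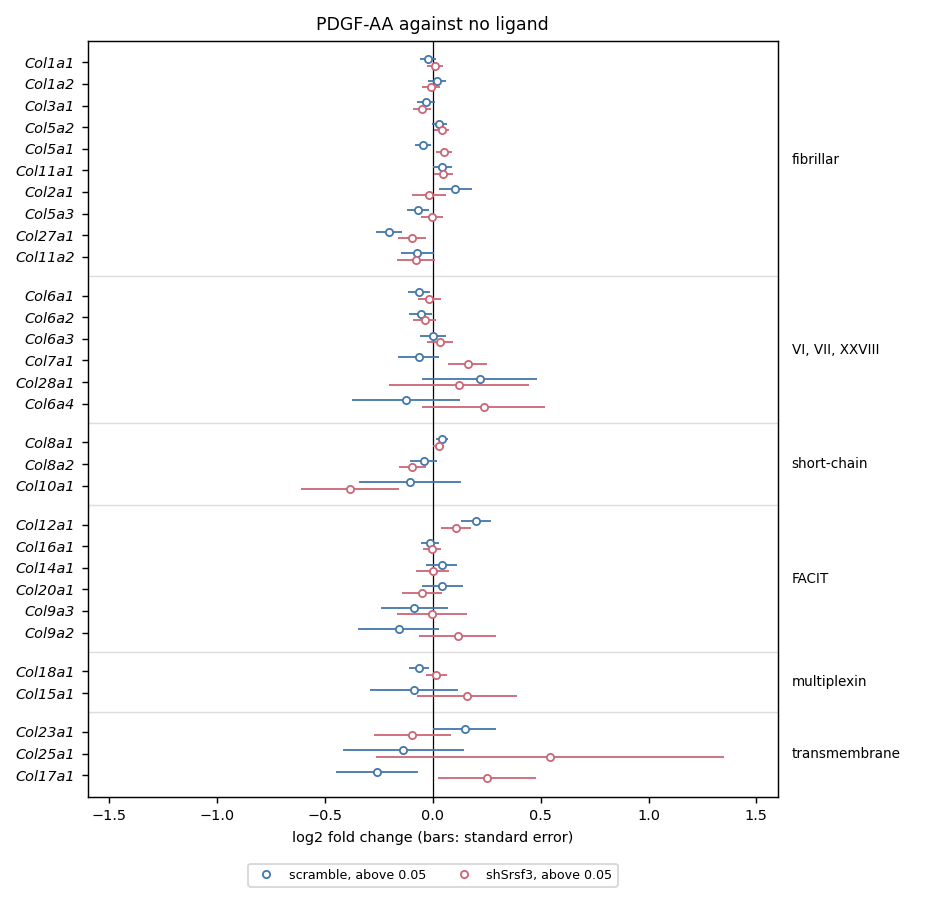
Log2 fold change of PDGF-AA against no ligand for the 30 tested collagen genes, with its standard error as a bar, in scramble (blue) and shSrsf3 (red) cells; each point is open because each adjusted p is above 0.05. *Col12a1*, an abundant gene, lies at 0.20 in scramble and 0.11 in shSrsf3 cells, and the widest bars belong to genes of few counts such as *Col25a1* in shSrsf3 cells.

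Genes that act on collagens after translation were taken as 5 lists. Over all tested genes, 45.9% passed the test without ligand (22.2% higher and 23.7% lower in shSrsf3). With ligand, 41.0% passed (20.3% higher and 20.7% lower). The counts of all 5 lists are to be read beside these shares, and no list was tested as a set. Of 23 genes for hydroxylation, folding and chaperoning of procollagen in the endoplasmic reticulum, 22 were tested, and 4 were higher and 9 lower in shSrsf3 cells without ligand (5 and 10 with it), at a median log2 fold change of -0.03 and -0.04. None was DE, and *Serpinh1*, the collagen chaperone Hsp47, was at -0.16 and -0.19. Of 13 tested export genes, 0 were higher and 5 lower (0 and 8 with ligand), with medians of -0.06 and -0.15 and none DE. *Serpinh1*, *Lox* and *Sparc* are named for their textbook roles, after their values were seen.

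Of 16 genes for propeptide cleavage and crosslinking 12 were tested, and 3 were higher and 5 lower without ligand (3 and 4 with it), with medians of -0.07 and -0.03. *Tgm2*, a transglutaminase that crosslinks matrix proteins, rose from 31.8 ± 0.643 to 88.7 ± 2.04 CPM without ligand and from 33.7 ± 4.29 to 90.9 ± 6.30 CPM with it (log2 fold changes of 1.48 and 1.43). *Pcolce2*, an enhancer of C-propeptide cleavage, was at -0.71 and -1.29 and below 1 CPM. *Lox*, the lysyl oxidase that crosslinks fibers, fell by 0.37 and 0.35 on the log2 scale.

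Proteins that bind collagen fibers had a median close to that of the collagens. Of 18 such genes 17 were tested, and 10 were lower and 4 higher without ligand (11 and 3 with it), at medians of -0.35 and -0.36. Both DE genes rose: *Dcn*, a small proteoglycan on the fiber surface, from 19.2 ± 0.839 to 84.3 ± 2.10 CPM without ligand and from 19.9 ± 1.79 to 72.7 ± 9.82 CPM with it (2.13 and 1.87), and *Tnxb*, tenascin X, which binds collagen fibers, from 0.989 ± 0.294 to 5.23 ± 0.828 CPM and from 1.19 ± 0.222 to 5.17 ± 1.04 CPM (2.36 and 2.12). *Sparc*, an abundant collagen-binding protein, fell by 0.48 and 0.43. *Thbs1*, an adhesive matrix protein, was the single gene of the 5 lists past the test for ligand, at 8562 ± 509 CPM without and 10265 ± 341 CPM with PDGF-AA in scramble cells (0.26, adjusted p = 0.00939). Of 11 collagen receptors 9 were tested, with 3 higher and 2 lower without ligand (3 and 3 with it). *Itga2*, the α chain of the α2β1 collagen receptor, was at 0.652 ± 0.28 and 1.67 ± 0.17 CPM without ligand (1.32) and at 0.85 on the log2 scale with it.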

How the data were processed

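Poly-A RNA-seq of 12 iMEPM samples (4 groups of 3) was analysed. The authors trimmed reads with BBDuk, quantified them with Salmon 1.4.0 against GENCODE M26 (GRCm39) and deposited gene-level estimated counts from tximport, whose scaling option is not given in the sources used here. Of the deposited values, 16.3% were not whole and were rounded. Low counts were filtered (filterByExpr, minimum count 10), and the 15037 remaining genes were fitted in edgeR 4.0.16 (R 4.3.3) with TMM scaling, 1 mean per group over 12 samples, and Benjamini-Hochberg adjustment over all tested genes. A 2-fold change was also required for DE. CPM used TMM-scaled totals, and kb the GENCODE M39 canonical transcript. The code was tested on simulated counts. Annotated genes overlap 12 members on the same strand and 28 on the opposite strand.

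Full values were given for members that were DE in either knockdown comparison with a mean of at least 1 CPM, for the 3 members of highest CPM per kb, and for members called for ligand (0 found); of partner lists, at most 3 DE genes each and any gene called for ligand. Members and lists were chosen with earlier results of these data known. Alternatives were DESeq2 1.42.0, limma 3.58.1 voom, other scaling and filters, thinning, each library left out, a replicate block, and the fit without 3 libraries of lower mapping rate per the study's methods. Replicates came from 1 line per shRNA, so p-values measure the spread between these cultures. Intervals cover counting error only.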

Additional observations from a re-analysis of the deposited data

How the results depend on the processing

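No count of collagen genes past the knockdown tests moved beyond 1.5 times under any alternative. With each library left out, 25 to 28 members passed without ligand and 22 to 25 with it, and 5 to 6 were DE in either condition. Without the 3 libraries of lower mapping rate, 23 and 24 members passed, the first with 1 unstimulated scramble library left, whose spread is taken from the remaining groups. Of 1258 alternative values of single members in the knockdown comparisons, 1217 kept their side of the threshold, 23 lost it, 18 gained it and 0 changed sign, and 8 members were affected. For PDGF-AA in scramble cells, the count of 0 members became 1 with DESeq2, 2 with no low-count filter, 1 without the 3 libraries of lower mapping rate, and 0 to 1 with single libraries left out; the cause was not tested. Alternatives for the chain ratios were chosen after seeing the data. The p of 8 pairs is the smallest the test can give, so it says nothing of stability; with single libraries left out, the mean log2 change of *Col6a1*/*Col6a3* ranged from -1.02 to -0.95 and that of *Col1a1*/*Col1a2* from 0.29 to 0.33.

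Replicate numbers did not pair the samples: over 18 pairs of same-numbered samples, the correlation of deviations from the group means ranged from -0.27 to 0.40, and 3 were over 0.1. With a replicate block, 25 members passed without ligand and 23 with it, 5 were DE in each, and 0 passed for ligand or interaction; the block ended the call of *Col11a1* in both conditions (adjusted p = 0.0544 and 0.055). Genes under about 1 CPM rest on few counts a library, and 8 members could not be tested at this depth.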
